A study of Homo sapiens with 6 samples.

Results

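The genes described here are 10 dual-specificity MAP kinase phosphatases of the DUSP family, taken by gene symbol from a table of 58735 genes: DUSP1, DUSP2, DUSP4, DUSP5, DUSP6, DUSP7, DUSP8, DUSP10, DUSP14 and DUSP16. Their transcripts were measured by RNA-seq of poly-A enriched RNA from A375, an established human malignant melanoma cell line. There were 3 libraries of cells treated with PAL (Ringer's lactate that had been exposed to low-temperature plasma) and 3 libraries of control cells. Depth was 15064971 to 17711389 reads assigned to genes per library, and levels are FPKM, that is reads scaled to gene length and to library size. The sources used here do not give dose, exposure time, culture conditions or whether replicates were separate cultures, so a p-value measures no more than the spread between libraries, and that spread may be technical. They also leave unexplained the number 64 in the names of the PAL columns. Of the melanocyte and melanoma markers, SOX10 stood at 108 FPKM in PAL and 88.1 FPKM in control libraries and MITF at 2.25 and 2.36 FPKM, whereas the pigment genes TYR, MLANA, TYRP1, DCT and PMEL were all under 1 FPKM. SOX10 was called higher and S100B lower (4.03 FPKM in PAL and 5.18 FPKM in control), 3 of the 8 melanocyte and melanoma markers reached 1 FPKM, and their sum was 114 to 115 FPKM in PAL and 93.8 to 98.0 FPKM in control libraries. Of 4 keratinocyte markers 2 reached 1 FPKM (KRT10, and KRT14, which was called lower at 2.87 FPKM in PAL and 3.80 FPKM in control, limma adjusted p = 0.0422), with sums of 30.8 to 33.4 FPKM in PAL and 31.5 to 36.4 FPKM in control. Of 4 fibroblast markers 1 did (LUM), with sums of 3.06 to 4.47 FPKM in PAL and 4.14 to 4.69 FPKM in control. The 3 endothelial and 4 leukocyte markers were all under 1 FPKM in every library, and the part of such cells in the results was not tested.

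Mitogen-activated protein (MAP) kinases are switched on by phosphorylation of a threonine and a tyrosine in their activation loop, and dual-specificity phosphatases remove both phosphates. DUSP1, DUSP2, DUSP4 and DUSP5 are nuclear enzymes whose genes are induced by growth factors and stress. DUSP6 and DUSP7 are cytoplasmic and act mainly on ERK, and DUSP8, DUSP10 and DUSP16 act mainly on the stress kinases JNK and p38. DUSP14 is a small enzyme that lacks the MAP kinase binding domain of the others. In melanoma cells with an activating BRAF mutation, as A375 has, DUSP4 and DUSP6 are known as transcripts kept up by ERK signalling and as negative feedback on it.

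Promoter sequence is shown for 4 members, chosen by their levels in these data, to set DUSP1, DUSP2 and DUSP8, which stood far lower in PAL, beside DUSP7, which did not. RefSeq promoter windows on GRCh38.p14 were matched for 8 of the 10 members, and DUSP4 and DUSP5 had no entry. Each line below gives the 250 bases before the RefSeq transcript start, 5′ to 3′ on the strand of the gene, which is the minus strand for all 4. The windows are chr5:172771196-172771445 for DUSP1, chr2:96145441-96145690 for DUSP2, chr11:1572272-1572521 for DUSP8 and chr3:52056572-52056821 for DUSP7. Capitals mark matches, on either strand, to TGACGTCA (the cyclic AMP response element, or CRE, the site bound by CREB and ATF factors), to its core TGACG, or to CACGTG (the E-box).
DUSP1: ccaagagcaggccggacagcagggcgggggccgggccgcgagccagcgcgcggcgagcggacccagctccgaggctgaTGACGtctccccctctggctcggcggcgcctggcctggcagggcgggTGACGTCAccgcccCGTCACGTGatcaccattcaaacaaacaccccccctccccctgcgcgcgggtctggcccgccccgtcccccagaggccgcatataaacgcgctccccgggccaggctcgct
DUSP2: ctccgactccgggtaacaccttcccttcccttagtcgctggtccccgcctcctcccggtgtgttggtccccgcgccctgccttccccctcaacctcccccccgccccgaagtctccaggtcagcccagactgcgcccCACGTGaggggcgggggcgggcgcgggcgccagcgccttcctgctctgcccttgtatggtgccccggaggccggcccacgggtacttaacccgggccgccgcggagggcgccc
DUSP8: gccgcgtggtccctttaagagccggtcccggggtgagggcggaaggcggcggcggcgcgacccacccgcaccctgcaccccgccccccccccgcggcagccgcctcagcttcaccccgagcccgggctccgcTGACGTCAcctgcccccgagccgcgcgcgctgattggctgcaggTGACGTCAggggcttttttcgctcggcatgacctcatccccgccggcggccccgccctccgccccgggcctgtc
DUSP7: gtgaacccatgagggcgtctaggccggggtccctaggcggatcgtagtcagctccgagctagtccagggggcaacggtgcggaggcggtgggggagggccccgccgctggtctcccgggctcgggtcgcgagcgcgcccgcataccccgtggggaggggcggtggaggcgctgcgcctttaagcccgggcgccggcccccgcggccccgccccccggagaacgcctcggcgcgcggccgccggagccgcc

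The full CRE was found in DUSP1, 125 to 118 bases before the start, and at 2 places in DUSP8, 118 to 111 and 74 to 67 bases before it. A full CRE was present in 1.65% of the 35116 promoter windows in the RefSeq table, and 2 or more in 0.0541% of them (19 windows). The core TGACG occurs on both strands of each full CRE, and DUSP1 had 2 further cores outside it, 172 to 168 and 111 to 107 bases before the start. Cores of any kind were present in 21.2% of windows. An E-box stood in DUSP2, 113 to 108 bases before the start, and in DUSP1, 108 to 103 bases before it, where it overlaps a CRE core; 6.34% of windows held one. DUSP7 held none of these, and of the other windows searched (DUSP6, DUSP10 with 2 starts, DUSP14 and DUSP16) none did either. DUSP10, DUSP14 and DUSP16 were called lower in PAL, so the members called lower did not all share these motifs. The DUSP6 window lies wholly within exons of DUSP6 in GENCODE (250 bases), so it says nothing of the sequence upstream of that gene, and windows of DUSP10 and DUSP14 hold 87 and 60 exon bases. RefSeq and deposited starts agree for DUSP1 and DUSP2 and differ for the other members searched. Windows of DUSP6, DUSP10 and DUSP14 lie partly or wholly within the deposited genes. DUSP7, DUSP8 and DUSP16, all on the minus strand, have a gap between the window and the deposited gene. Their windows begin at 52056572, 1572272 and 12562864, whereas the deposited genes reach only to 52056550, 1571920 and 12562383. No window of the 8 members held TGANTCA (the AP-1 site, in 6.57% of all windows), TTCNNGAA (the core of the heat shock element, in 6.62%) or a CArG box (in 1.16%), the last being the site of serum response factor. A kappa B motif was found in DUSP7 (9.96% of windows). The CCAAT motif was found in DUSP6, DUSP8 and DUSP10 (32.0% of windows). These matches are descriptions of the letters in a window and not evidence of binding.

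**Figure D1:**
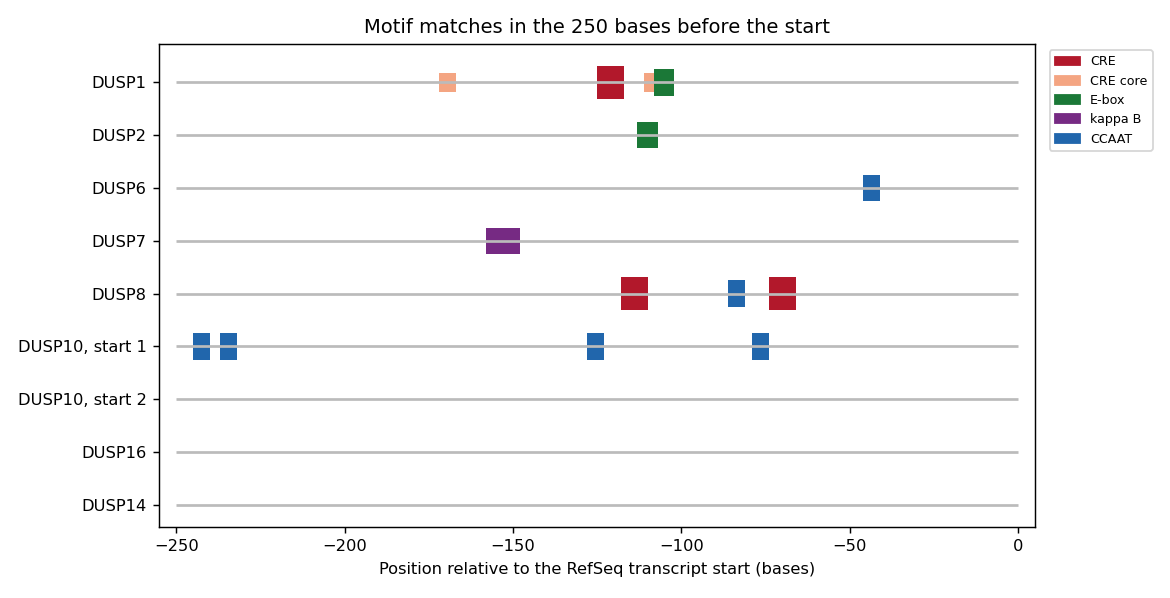
Matches to 5 motifs in the 250 bases before the RefSeq transcript start of 8 phosphatase genes (x axis, bases relative to the start; 1 line per window, 2 for DUSP10). Coloured blocks span the matched bases. The full CRE appears in DUSP1 and at 2 places in DUSP8, and in no other window drawn.

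The first question was which of these phosphatase transcripts differ with PAL. The nuclear inducible DUSP1, DUSP2 and DUSP5 fell to 0.219, 0.138 and 0.214 of their control means, DUSP10 fell by 0.75 on the log2 scale, and the fourth nuclear member, DUSP4, was not called, with a mean above that of control. The cytoplasmic ERK-specific DUSP6 and DUSP7 were not called either. DUSP8 had 0 to 6 reads per PAL library. In the limma fit over 12258 genes with at least 1 FPKM in at least 3 libraries (log2 of FPKM + 1, Benjamini-Hochberg adjusted p below 0.05), 6 of the 10 members were called lower, 0 higher, 3 were not called and DUSP8 was not tested. Of all tested genes 14.5% were called lower and 11.4% higher, 25.9% in either direction. At an unadjusted p below 0.05, DUSP4 and DUSP6 stood higher, and voom (a limma fit that weights log counts by their precision) called these 2 higher. The median difference of the 9 tested members was -0.43 on the log2 scale, against 0.0043 over all tested genes. DUSP16 met the level filter in all control libraries and 1 PAL library, so this count and median describe the tested members only. In bulk RNA, fewer cells with a transcript and less transcript per cell cannot be told apart.

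**Figure D2:**
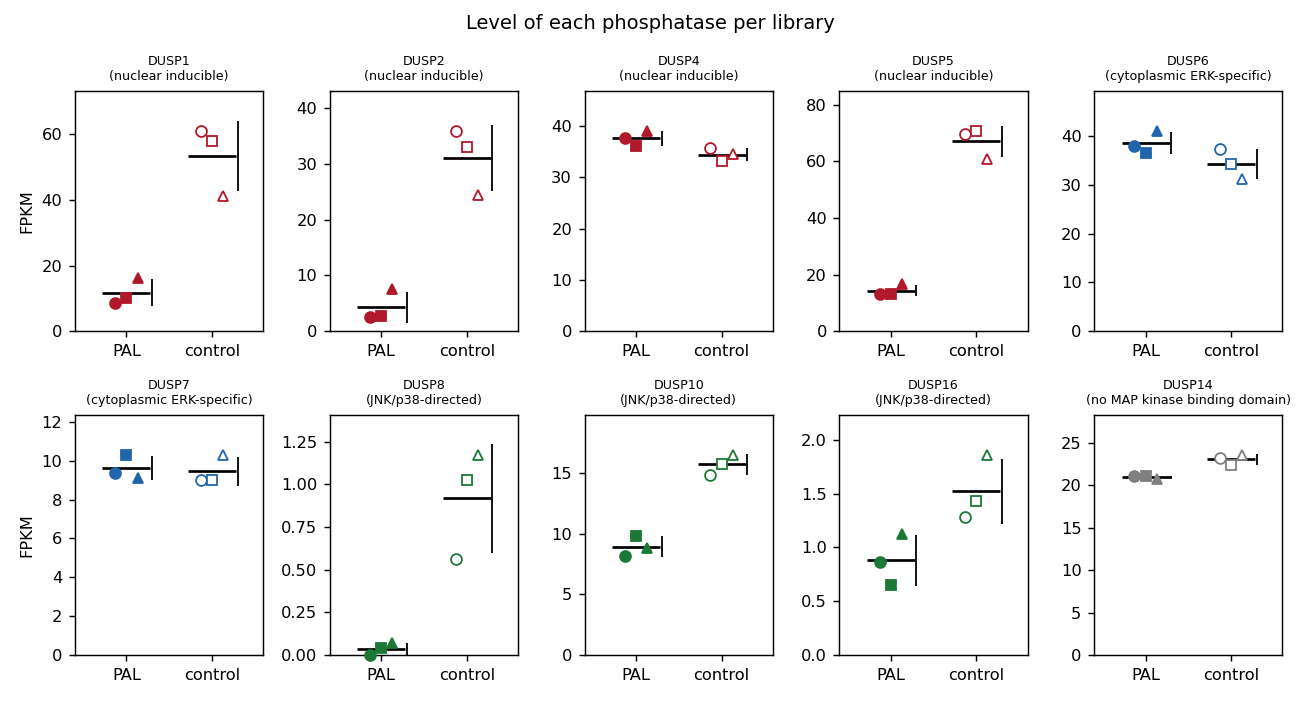
FPKM of each phosphatase (y axis, linear, from 0) in PAL libraries (filled, left) and control libraries (open, right). Circles, squares and triangles are replicates 1, 2 and 3, the horizontal line is the mean and the vertical line its SD. DUSP1, DUSP2, DUSP5, DUSP8 and DUSP10 lie far apart between groups, while the ranges of DUSP6 and DUSP7 overlap.

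DUSP5, a nuclear phosphatase specific for ERK (chromosome 10, 110497838 to 110511544, hg38), stood at 13.1, 13.2 and 16.7 FPKM in PAL replicates 1, 2 and 3, against 69.8, 70.7 and 60.8 FPKM in control replicates 1, 2 and 3. The groups lay far apart, with 16.7 FPKM as the highest PAL library and 60.8 FPKM as the lowest control library. DUSP5 fell by 2.16 ± 0.10 (SE) on the log2 scale in limma (adjusted p = 2.93e-05), and its mean was 4.68 times higher in control. It ranked 33 of the 12258 tested genes by size of fall. By level it ranked 3230 in PAL and 654 in control.

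DUSP1, the founding nuclear member, which acts on JNK, p38 and ERK (chromosome 5, 172768090 to 172771195), stood at 8.72, 10.1 and 16.3 FPKM in PAL replicates 1, 2 and 3. In control replicates 1, 2 and 3 it stood at 61.0, 58.0 and 41.2 FPKM. It fell by 2.12 ± 0.23 (adjusted p = 0.00130), and the mean was 4.56 times higher in control. DUSP2, a nuclear phosphatase known from activated lymphocytes (chromosome 2, 96143166 to 96145440), had the largest fall among the tested members. It stood at 2.59, 2.79 and 7.47 FPKM in PAL replicates 1, 2 and 3, against 35.9, 32.9 and 24.5 FPKM in control replicates 1, 2 and 3. The fall was 2.70 ± 0.33 (adjusted p = 0.00192), which ranked 16 of 12258. In DUSP1, DUSP2 and DUSP5 alike, PAL replicate 3 was the highest PAL library and control replicate 3 the lowest control library, so the libraries numbered 3 stood nearest to the other group. The mean of DUSP2 was 7.26 times higher in control with all libraries and 11.6 times higher without PAL replicate 3. Without both libraries numbered 3 the ratio of control to PAL means was 6.31 for DUSP1, 12.8 for DUSP2 and 5.33 for DUSP5.

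DUSP4, the nuclear member coupled to ERK output in melanoma (chromosome 8, 29333064 to 29350668), was the nuclear member without a call. It stood at 37.8, 36.2 and 39.1 FPKM in PAL replicates 1, 2 and 3, against 35.7, 33.1 and 34.5 FPKM in control replicates 1, 2 and 3. Every PAL library was above every control library by a small margin. The difference was 0.13 ± 0.04, with a 95% interval of 0.03 to 0.22, and did not pass in limma (adjusted p = 0.0617). DUSP4 passed as higher with voom on reads recovered from the FPKM values (adjusted p = 0.0119), and with a mean filter of 5 FPKM (adjusted p = 0.0455). It also passed after quantile normalization (adjusted p = 0.0297), with levels as TPM (adjusted p = 0.0176) and with plain totals of reads (adjusted p = 0.00927). The 16 alternatives gave adjusted p-values between 0.00927 and 0.207, and PAL was the higher group in each.

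DUSP6, the cytoplasmic ERK phosphatase (chromosome 12, 89347232 to 89353271), stood at 38.05, 36.5 and 41.0 FPKM in PAL replicates 1, 2 and 3, against 37.3, 34.3 and 31.3 FPKM in control replicates 1, 2 and 3. The groups overlapped, since control replicate 1 lay above PAL replicate 2. The difference was 0.17 ± 0.07 (95% interval 0.0024 to 0.33), and limma did not call it (adjusted p = 0.122). It passed as higher with voom (adjusted p = 0.0240), as TPM (adjusted p = 0.0496) and with plain read totals (adjusted p = 0.0322). The 16 alternatives spanned 0.0240 to 0.457, and the difference was 0.10 without control replicate 3 and 0.06 without both libraries numbered 3. DUSP7, its cytoplasmic relative (chromosome 3, 52048919 to 52056550), stood at 9.39, 10.3 and 9.13 FPKM in PAL replicates 1, 2 and 3, against 9.03, 9.04 and 10.3 FPKM in control replicates 1, 2 and 3. Its difference was 0.02 ± 0.07, with a 95% interval of -0.13 to 0.18 (adjusted p = 0.831). A change of DUSP7 as large as that of DUSP10 lay outside this interval. Reads of DUSP6 may include some of AC024909.2, an antisense gene over it, which stood at 2.43, 1.91 and 1.76 FPKM in PAL and 1.65, 1.44 and 1.602 FPKM in control replicates 1, 2 and 3, since the counting is not stated to use strand.

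Among the phosphatases directed at JNK and p38, DUSP10 had the highest FPKM (chromosome 1, 221701424 to 221742176). It stood at 8.12, 9.83 and 8.81 FPKM in PAL replicates 1, 2 and 3, against 14.8, 15.8 and 16.5 FPKM in control replicates 1, 2 and 3. The groups did not overlap, and the fall of 0.75 ± 0.07 passed (adjusted p = 6.17e-04). DUSP16, which is held in the cytoplasm or shuttles to the nucleus (chromosome 12, 12474210 to 12562383), was low, at 0.864, 0.649 and 1.12 FPKM in PAL replicates 1, 2 and 3, against 1.28, 1.43 and 1.86 FPKM in control replicates 1, 2 and 3. It was called lower narrowly, by 0.43 ± 0.13 (adjusted p = 0.0463), on a scale that the pseudocount of 1 compresses at such levels. The difference was -0.74 with a pseudocount of 0.1 and -0.80 with voom, and the mean was 1.74 times higher in control. The call ended when PAL replicate 1 or 2 was left out (adjusted p = 0.111 and 0.130), or any 1 control library (adjusted p = 0.0550, 0.0930 and 0.113 for replicates 1, 2 and 3). It also ended with a pseudocount of 0.1 (adjusted p = 0.0514), with no filter (adjusted p = 0.140), as TPM (adjusted p = 0.0578) and with plain read totals (adjusted p = 0.0538). AC007619.1, a noncoding gene on the other strand, overlaps DUSP16 by 6229 bases, and reads of DUSP16 may include some of it. It stood at 0.132, 0.145 and 0.132 FPKM in PAL replicates 1, 2 and 3 and at 0 in every control library.

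DUSP8 (chromosome 11, 1554044 to 1571920), the JNK and p38 phosphatase best known from brain and heart, did not reach the filter. It had 0, 3 and 6 reads in PAL replicates 1, 2 and 3, against 41, 70 and 84 reads in control replicates 1, 2 and 3. In FPKM these were 0, 0.0389 and 0.0706 in PAL, against 0.561, 1.02 and 1.17 in control. The summed reads, 9 in PAL and 195 in control, gave a level 25.1 times higher in control, with an exact 95% interval of 13 to 55.8 that covers counting error only. The count of 0 in PAL replicate 1 allows up to 0.0353 FPKM (3 reads). The ratio of means was 25.2, and 47.3 without PAL replicate 3 or 16.8 without PAL replicate 1. When every gene above 0 in at least 1 library was tested, DUSP8 passed as lower (limma, difference -0.88, adjusted p = 0.0179), a value held small by the pseudocount of 1. DUSP8 had the lowest mean FPKM of the members in both groups.

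DUSP14 (chromosome 17, 37489831 to 37513501) stood at 21.1, 21.0 and 20.7 FPKM in PAL replicates 1, 2 and 3, against 23.2, 22.4 and 23.6 FPKM in control replicates 1, 2 and 3. The groups did not overlap but the margin was small, and the fall of 0.13 ± 0.03 passed in limma (adjusted p = 0.0216). The call ended after quantile normalization (adjusted p = 0.0838), as TPM (adjusted p = 0.155) and with plain read totals (adjusted p = 0.236). Leaving out any 1 PAL library (adjusted p = 0.0621, 0.0628 and 0.0640 for replicates 1, 2 and 3) or control replicate 1 (adjusted p = 0.0635) also ended it, as did a replicate block (adjusted p = 0.0647). Over all tested genes the values of the groups did not overlap in 44.9%, and among the 9 tested members in 7.

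**Figure D3:**
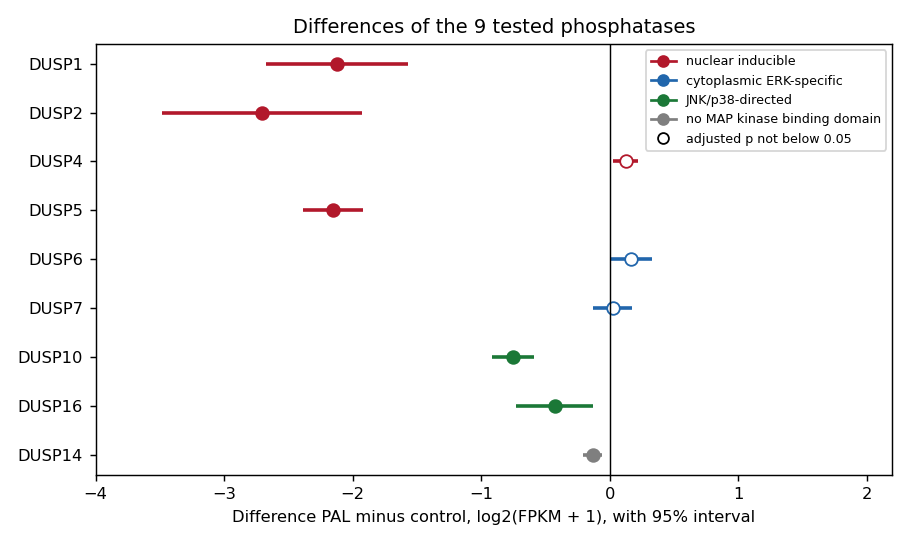
Differences between PAL and control on the log2(FPKM + 1) scale (x axis) for the 9 tested phosphatases, with 95% intervals from limma. Filled points passed at an adjusted p below 0.05. DUSP1, DUSP2 and DUSP5 lie between -2.70 and -2.12, while DUSP4, DUSP6 and DUSP7 lie between 0.02 and 0.17.

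FPKM values are scaled to 1 deposited length per gene. The order of members therefore also depends on how well that length matches the transcripts present, which was not tested. Comparisons of a gene between libraries use the same length throughout. In PAL libraries DUSP6 (38.5 ± 2.30 FPKM) and DUSP4 (37.7 ± 1.45 FPKM) led, followed by DUSP14 (20.9 ± 0.191), DUSP5 (14.3 ± 2.03), DUSP1 (11.7 ± 4.04), DUSP7 (9.62 ± 0.625), DUSP10 (8.92 ± 0.861) and DUSP2 (4.28 ± 2.76; SD, n = 3). In control libraries DUSP5 (67.1 ± 5.45 FPKM) and DUSP1 (53.4 ± 10.6 FPKM) led, followed by DUSP4 (34.5 ± 1.31), DUSP6 (34.3 ± 3.02), DUSP2 (31.1 ± 5.93), DUSP14 (23.1 ± 0.639), DUSP10 (15.7 ± 0.851) and DUSP7 (9.46 ± 0.738; SD, n = 3). DUSP16 and DUSP8 came last in both groups. The library ranges of neighbours overlapped for DUSP6 and DUSP4, and along the run from DUSP5 through DUSP1 and DUSP7 to DUSP10, in PAL. In control they overlapped for DUSP5 and DUSP1, for DUSP4 and DUSP6, and for DUSP6 and DUSP2.

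Summed over the 10 members, the level was 147 ± 11.7 FPKM in PAL and 271 ± 22.4 FPKM in control libraries (SD, n = 3 each). The 4 nuclear members together stood at 62.2, 62.3 and 79.6 FPKM in PAL replicates 1, 2 and 3, against 202, 195 and 161 FPKM in control replicates 1, 2 and 3. The cytoplasmic pair stood at 47.4, 46.8 and 50.2 FPKM in PAL replicates 1, 2 and 3, against 46.3, 43.3 and 41.6 FPKM in control replicates 1, 2 and 3. The nuclear members thus made up 46.1% ± 2.99 of the summed level in PAL and 68.5% ± 2.59 in control. The share of the cytoplasmic pair was 32.8% ± 1.41 in PAL and 16.2% ± 0.692 in control. The JNK and p38 phosphatases together stood at 9.83 ± 0.781 FPKM in PAL and 18.1 ± 1.45 FPKM in control. Their share was 6.71% ± 0.666 in PAL and 6.75% ± 1.11 in control. Within the nuclear members, DUSP4 made up 56.0% ± 6.09 of the summed level in PAL, against 18.7% ± 2.39 in control. Shares are tied to each other, so a higher share of DUSP4 does not by itself show a higher level. Nor does a like share of the JNK and p38 phosphatases show a like level.

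**Figure D4:**
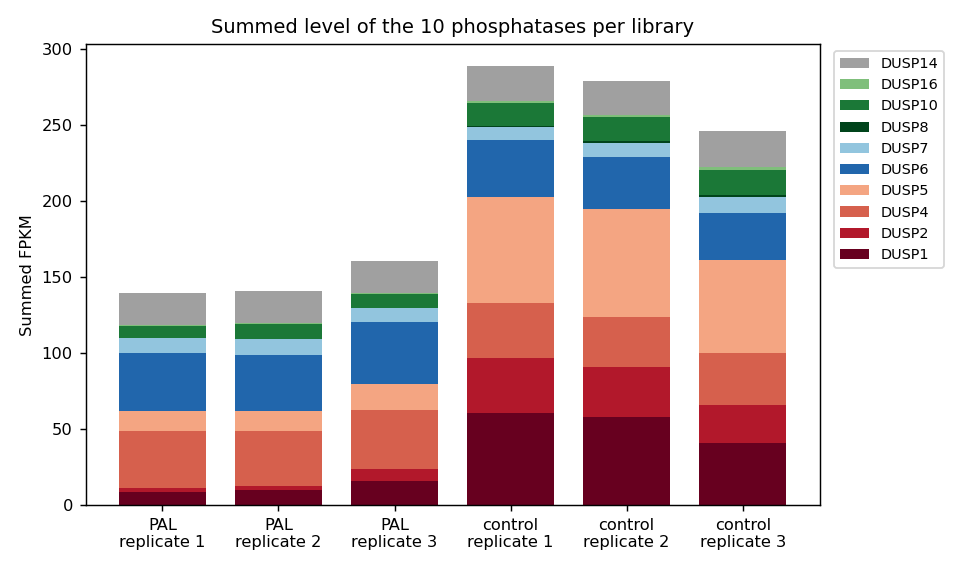
Summed FPKM of the 10 phosphatases in each library (bars from 0, PAL left, control right), split by gene. Red shades are the nuclear members, blue the cytoplasmic ERK-specific pair, green the JNK and p38 phosphatases and grey DUSP14. The red part is smaller in PAL libraries, except for DUSP4, and the blue part is of like height in all 6 libraries.

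Ratios within a library do not depend on the scaling between libraries. The ratio of DUSP5 to DUSP6, the nuclear against the cytoplasmic ERK-specific enzyme, was 0.344, 0.363 and 0.407 in PAL replicates 1, 2 and 3, against 1.87, 2.06 and 1.95 in control replicates 1, 2 and 3. DUSP6 therefore had the higher FPKM of the pair in every PAL library and DUSP5 in every control library. The difference of the mean log2 ratio was -2.40 (exact permutation test, two-sided, p = 0.1, the smallest that 3 against 3 libraries allow, and 0.15 adjusted over the 3 ratios computed). The ratio of DUSP1 to DUSP16 was 10.1, 15.6 and 14.6 in PAL replicates 1, 2 and 3, against 47.6, 40.6 and 22.2 in control replicates 1, 2 and 3 (exact permutation p = 0.1, adjusted 0.15). Control replicate 3 was the lowest control library of this ratio but still above all PAL libraries. The ratio of DUSP4 to DUSP6 was 0.993, 0.991 and 0.952 in PAL replicates 1, 2 and 3, against 0.958, 0.966 and 1.10 in control replicates 1, 2 and 3. The groups overlapped (difference of the mean log2 ratio -0.04, exact permutation p = 0.8, adjusted 0.8), with both genes at nearly the same FPKM in each library.

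The control libraries also differed among themselves, and in opposite ways. Control replicate 3 was the lowest control library for DUSP1, DUSP2, DUSP5 and DUSP6 and the highest for DUSP7, DUSP8, DUSP10, DUSP14 and DUSP16. Among genes outside the family, FOS, an AP-1 subunit, had the order of DUSP1, at 9.60, 10.5 and 23.9 FPKM in PAL replicates 1, 2 and 3, against 94.9, 75.9 and 32.8 FPKM in control replicates 1, 2 and 3. What set these libraries apart was not tested.

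The genes whose log2 levels followed a member most closely over the 6 libraries were sought for DUSP1, DUSP5 and DUSP6. For DUSP1 they were JUN (Pearson r = 0.9995), NFKBIA (0.9993) and EGR1 (0.9991). For DUSP5 they included IER5 (0.9997) and PPP1R15A (0.9988). For DUSP6 they were TSPAN5 (0.9942), ELOVL6 (0.9927) and CFDP1 (0.9900). These r values describe 6 libraries in 2 groups, share the scaling of each library, and are among the highest of all tested protein-coding genes. JUN, the AP-1 transcription factor, stood at 32.8 ± 14.4 FPKM in PAL and 261 ± 67.0 in control, and IER5, a regulator of heat shock factor activity, at 23.5 ± 5.13 in PAL and 281 ± 24.1 in control (SD, n = 3 each). PPP1R15A, or GADD34, stood at 41.0 ± 5.03 in PAL and 193 ± 7.08 in control. TSPAN5, ELOVL6 and CFDP1 did not pass in limma (adjusted p = 0.470, 0.218 and 0.385).

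The remaining dual-specificity phosphatases, which include atypical enzymes with few MAP kinase substrates, had no call among those tested. Of 20 listed, 11 were tested, and limma called 0 of them, with a median difference of 0.12, where 25.9% of all tested genes were called. At an unadjusted p below 0.05 there was 1, DUSP22, which stood higher, and after adjustment 2 were called higher by voom, 3 as TPM and 4 with plain read totals. Below the filter, DUSP19 stood at 0.556, 0.557 and 0.616 FPKM in PAL replicates 1, 2 and 3, against 0.259, 0.301 and 0.336 FPKM in control replicates 1, 2 and 3, and passed as higher in the limma fit with no filter (difference 0.28, adjusted p = 0.0452). DUSP18, at 0.740 ± 0.0699 FPKM in PAL and 0.483 ± 0.0555 FPKM in control (SD, n = 3 each), did not overlap between groups and did not pass there (adjusted p = 0.137). DUSP18, DUSP19 and DUSP22 were named after their values were seen. DUSP9, another cytoplasmic ERK-specific enzyme, stood at 4.37 ± 0.128 FPKM in PAL and 4.69 ± 0.290 in control. DUSP3, which acts on ERK and JNK, stood at 9.23 ± 0.137 in PAL and 10.002 ± 0.972 in control (both named after their values were seen). The highest of the list in FPKM, DUSP12 and DUSP23, stood at 32.6 ± 2.01 and 19.0 ± 2.02 FPKM in PAL, against 29.96 ± 1.32 and 17.3 ± 0.220 FPKM in control. DUSP12 passed as higher as TPM (adjusted p = 0.0329), with plain read totals (adjusted p = 0.0280) and without PAL replicate 3 (adjusted p = 0.0445).

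The counts for the pathway lists are read against the 25.9% of all tested genes that were called, 14.5% lower and 11.4% higher. The balance of calls moved with the scaling over all genes too, with 1399 genes called higher in the fit described, 2697 as TPM and 3097 with plain read totals. Of 10 tested MAP kinases, 2 were called, both higher and both p38 isoforms. Which of these kinases the listed phosphatases act on in these cells was not tested. The list had 3 higher calls as TPM, 4 with plain read totals and 1 with no filter. MAPK14, or p38 alpha, stood at 6.47 ± 0.276 FPKM in PAL and 6.95 ± 0.235 in control and was not called (limma adjusted p = 0.199). MAPK13, the remaining p38 gene, was below the level filter. Both were named after their values were seen. MAPK12, or p38 gamma, stood at 3.80 ± 0.160 FPKM in PAL and 2.69 ± 0.0944 in control (difference 0.38, adjusted p = 0.00343). MAPK11, or p38 beta, stood at 4.44 ± 0.480 in PAL and 3.36 ± 0.239 in control. Its call (adjusted p = 0.0261) ended when PAL replicate 2 or 3 was left out (adjusted p = 0.0788 and 0.0681), or control replicate 1 or 2 (adjusted p = 0.0743 and 0.0721). MAPK3, an ERK gene, stood at 9.80 ± 0.667 FPKM in PAL, against 9.30 ± 0.423 FPKM in control, and did not pass (adjusted p = 0.417, named after its values were seen). Of 6 tested MAP kinase kinases 1 was higher (MAP2K7) and 1 lower (MAP2K1), and of 17 tested RAF and MAP3K kinases 2 were called, both lower (MAP3K7 and MAP3K20). The direction of the RAF and MAP3K calls turned with the scaling, to 2 higher and 0 lower both as TPM and with plain read totals, while voom gave 0 higher and 4 lower and the replicate block gave 0 calls. The MAP kinase kinases had 2 higher and 0 lower calls with quantile normalization, TPM or plain read totals, and 0 calls with the replicate block. Each of these 4 differed by at most 0.20 on the log2 scale and lost its call when any 1 of 5 of the 6 libraries was left out.

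Other inhibitors and targets of the pathway were also listed. Of 6 tested Sprouty and SPRED genes, inhibitors of RAS and RAF signalling, 1 was called, and 3 were called higher as TPM or with plain read totals. SPRY2 rose by 0.30, to 50.4 ± 1.53 FPKM in PAL, against 40.7 ± 3.50 in control (adjusted p = 0.0133). Of 7 tested phosphatases of other families that act on MAP kinases, 3 were called, all lower. PPM1D, or WIP1, a p53-induced phosphatase that acts on p38, fell by 0.58 to 5.20 ± 0.331 FPKM, against 8.26 ± 0.979 in control (adjusted p = 0.00377). PPP2CB, a catalytic subunit of PP2A, fell by 0.24 (adjusted p = 0.00306), and PPP2CA, the other one, by 0.12 (adjusted p = 0.0483, named after its values were seen). The count of this list was 2 lower without any 1 PAL library, without control replicate 1 or 2, after quantile normalization and with the replicate block, PPM1D and PPP2CB keeping their calls in each of these leave-outs. Of 9 tested kinases downstream of MAP kinases, 2 were higher and 2 lower, against 0 higher and 1 lower without PAL replicate 1, PAL replicate 2 or control replicate 2, and 2 higher and 4 lower with voom. MKNK2, which phosphorylates eIF4E, fell by 0.63 to 8.95 ± 0.306 FPKM, against 14.5 ± 1.37 in control (adjusted p = 0.00109). RPS6KA3, RPS6KA4 and MAPKAPK3 each differed by at most 0.16 and lost their calls when any 1 of 3 (RPS6KA3) or 5 (RPS6KA4 and MAPKAPK3) of the libraries was left out.

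Of 13 tested transcription factors known to act on phosphatase genes of this family, 1 was higher and 2 lower, a share near that of all genes. There were 5 higher as TPM and 6 higher with plain read totals, with 2 lower in both. SRF, serum response factor, fell by 0.57 to 14.4 ± 0.535 FPKM, against 21.9 ± 1.71 in control (adjusted p = 8.98e-04). ETS2, a target of ERK, fell by 0.76 to 5.13 ± 0.258 FPKM, against 9.40 ± 0.399 in control (adjusted p = 1.18e-04). ELK4, a partner of SRF, rose by 0.23 (adjusted p = 0.00577). CREB1, ATF1 and ATF2, factors that bind the CRE, did not pass (limma adjusted p = 0.282, 0.370 and 0.0694, named after their values were seen). Their differences were 0.10, 0.08 and -0.13. ATF2 stood lower at an unadjusted p below 0.05, at 4.82 ± 0.0505 FPKM in PAL and 5.37 ± 0.192 in control, without overlap of the groups. Of 10 tested ERK-dependent early and delayed genes, 1 was higher and 5 lower, where 11.4% and 14.5% of all genes were. Without PAL replicate 1 or PAL replicate 2 the count was 0 higher and 3 lower. EGR1, an early zinc finger factor, fell by 3.84 to 19.2 ± 11.5 FPKM, against 272 ± 87.7 in control (adjusted p = 0.00105). FOS fell by 2.12 (adjusted p = 0.0165), a call that ended when PAL replicate 1 or 2 or control replicate 2 was left out (adjusted p = 0.0556, 0.0621 and 0.0560). JUNB fell by 1.84, to 45.2 ± 8.46 FPKM in PAL, against 163 ± 11.9 in control (adjusted p = 1.20e-04). MYC fell by 0.40 (adjusted p = 0.0167, and 0.0588 in the limma fit with no filter) and IER3 by 0.34 (adjusted p = 8.05e-04). JUNB, MYC and IER3 were named after their values were seen. CCND1, cyclin D1, rose by 0.13 (adjusted p = 0.0178), a call that ended when PAL replicate 1 or 2 was left out (adjusted p = 0.0543 and 0.0629), and also without control replicate 2. FOSL1, ETV4 and ETV5, transcription factors sustained by ERK in such cells, stood at 223 ± 15.5, 91.2 ± 2.33 and 11.7 ± 0.306 FPKM in PAL, against 219 ± 6.68, 88.6 ± 4.11 and 12 ± 0.227 FPKM in control (adjusted p = 0.816, 0.453 and 0.467, named after their values were seen).

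**Figure D5:**
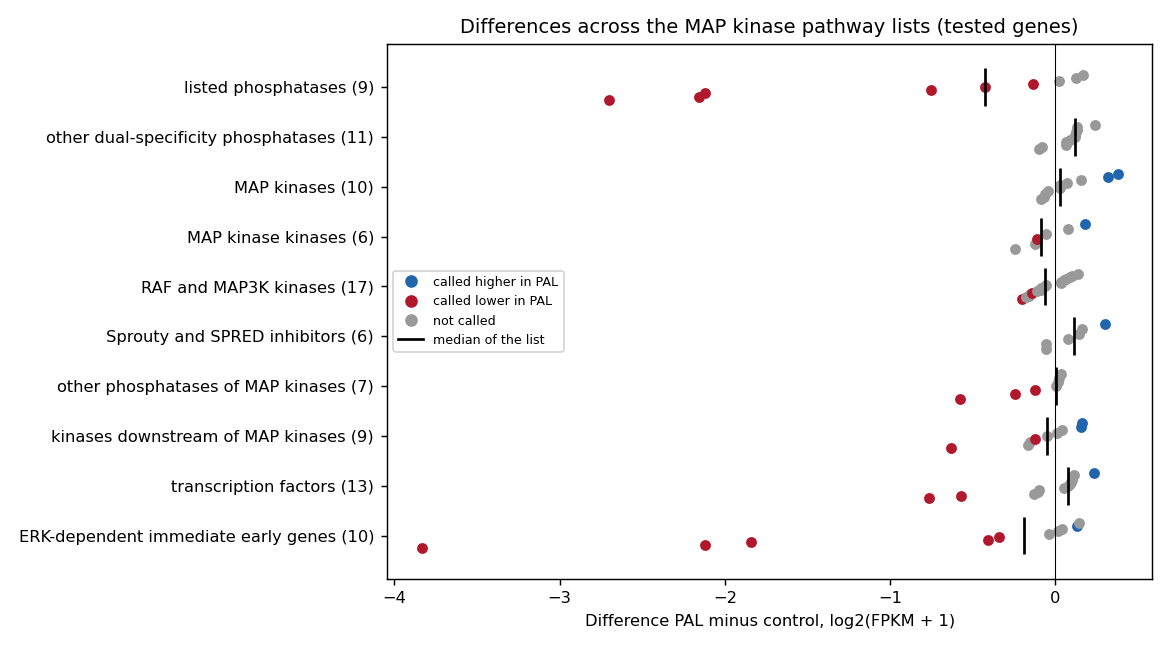
Differences between PAL and control on the log2(FPKM + 1) scale (x axis) for tested genes of the listed phosphatases and 9 pathway lists, with the number tested in brackets. Blue and red points were called higher and lower, grey ones were not called, and black bars are list medians. Falls beyond 1 on this scale appear for DUSP1, DUSP2 and DUSP5 and in the list of early genes (EGR1, FOS and JUNB) alone among the genes drawn.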

How the data were processed

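RNA-seq libraries of A375 cells, 3 PAL and 3 control, were grouped by sample title. Early and stress genes such as JUN and EGR1 are high in the control columns, and every direction rests on the deposited labels, which no targeted gene can check. The authors deposited 1 FPKM value per gene and library, with gene length and position, per the file headers. Per the submitters' processing notes the build is hg38. Aligner, counting tool and use of strand: not given in the sources used here. GENCODE release 29 holds each of the 58735 genes at its deposited coordinates. Multiplied by gene length and by 1 factor per library, 100% of the deposited FPKM values above 0 came within 0.01 of a whole number, taken as reads. The library size behind the FPKM was 1.04 to 1.05 of the plain read total in PAL and 0.980 to 0.984 of it in control. Intervals and floors from reads cover counting error only, since PCR copies are not independent molecules.

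Genes with at least 1 FPKM in at least 3 libraries (12258) were tested with limma 3.58.1 in R 4.3.3 on log2(FPKM + 1) with a variance trend, two-sided, Benjamini-Hochberg adjusted over all of them, threshold 0.05. This scale understates changes of low genes. The members, the pathway lists and the rule for named genes were chosen with earlier results of these data known. The rule takes all members, up to 2 rises and 2 falls per list (the 2 highest members where none passed) and the 3 protein-coding genes most correlated with DUSP1, DUSP5 and DUSP6. Of these, 1 gene is not reported here. The fit was tested on simulated reads of PAL against control (12237 genes with real means and depths). Of 50 genes given a 1.25-fold change it found 18%. For changes of 1.5, 2 and 4 times it found 74%, 92% and 98% of 50 genes each, and 6% of its calls were false. The spread in that simulation was assumed. Replicates differed by more than counting noise in every pair (within groups, 1.97 to 3.99 chi-square units per degree of freedom). Alternatives were pseudocounts of 0.1 and 0.5, other filters and scalings, voom on the recovered reads, a replicate block and leaving out libraries. Promoter sequences are from RefSeq, GRCh38.p14. Exact permutation tests used scipy 1.17.1 and figures matplotlib 3.10.9.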

Additional observations from a re-analysis of the deposited data

How the results depend on the processing

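DUSP1, DUSP2, DUSP5 and DUSP10 were called lower under all 16 alternatives, with differences of -2.54 to -1.95, -3.26 to -2.48, -2.33 to -2.07 and -0.82 to -0.68. The number of members called lower (6) was 4 to 6 under the alternatives, the calls of DUSP14 and DUSP16 being the ones lost. With no filter the 6 were not the same, since DUSP8 was tested and called (limma adjusted p = 0.0179) and DUSP16 was not called (0.140). With a mean filter of 5 FPKM, DUSP16 was not tested. The number called higher (0) was 1 with a mean filter of 5 FPKM or quantile normalization (DUSP4), and 2 as TPM, with plain read totals or with voom (DUSP4 and DUSP6). The difference of DUSP7 (0.02) turned to -0.0250 without PAL replicate 2, -0.00691 without control replicate 1 and -0.00631 without control replicate 2, and was 0.11 without both libraries numbered 3, none of these past the threshold, and the cause was not tested. The log2 difference of the DUSP4 to DUSP6 ratio (-0.04) was 0.0440 without both libraries numbered 3, and -0.0782 to 0.0244 when 1 library was left out. That of DUSP5 to DUSP6 was -2.47 to -2.35 and that of DUSP1 to DUSP16 -1.81 to -1.19 over all alternatives.

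Over all tested genes 3179 were called, 2103 with no filter and 1855 to 2789 when 1 library was left out. The share of higher calls was 44.0%, and 59.2% after quantile normalization, 69.7% as TPM and 73.3% with plain read totals. These scalings moved the median of all tested genes by less than 0.1 on the log2 scale. Deviations of same-numbered libraries from their group means had r = -0.0239, 0.0273 and -0.0447, and differently numbered pairs had r from -0.0406 to 0.0612. These values cannot show whether same-numbered libraries shared a culture or a batch. With the replicate block 5 members were called lower and 2131 genes in all. At this depth DUSP8 and DUSP16 rest on the fewest reads, 0 to 6 and 62 to 118 in PAL libraries, against 41 to 84 and 116 to 165 in control libraries.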

Other observations

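DUSP5P1, a processed pseudogene of DUSP5 on chromosome 1, stood at 0.764, 0.473 and 0.572 FPKM in PAL replicates 1, 2 and 3, against 0.111, 0.296 and 0.283 FPKM in control replicates 1, 2 and 3. These values rest on 16, 9 and 12 reads in PAL, against 2, 5 and 5 reads in control. The direction is opposite to that of DUSP5 in the same libraries, and the groups do not overlap. Among tested genes 44.9% did not overlap, but that share is over genes that met the level filter, which DUSP5P1 did not. DUSP8P5, a processed pseudogene of DUSP8, had 9, 8 and 10 reads in PAL, against 5, 9 and 6 reads in control, where DUSP8 itself had 9 reads in all PAL libraries together and 195 in all control libraries together. The sources used here do not say how reads shared by a gene and its copy were counted. Both pseudogenes were below the level filter. In the limma fit with no filter neither passed (DUSP5P1 difference 0.38, adjusted p = 0.0853, and DUSP8P5 difference 0.04, adjusted p = 0.722), and both were named after their values were seen.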
